A study of Mus musculus with 4 samples.

Results

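The genes described here are 51 genes of cell division, 27 that act in DNA replication and 24 that act in mitosis, in regulatory T cells sorted from mouse spleen. They were listed by function. Each was read from the brightest probe set annotated to that gene alone, and 50 of the 51 had one, among 18193 genes measured in the same way. Ccnb1, the B1 cyclin that activates Cdk1 at mitotic entry, had no probe set of its own and is not analysed here. The study profiled CD4+ Foxp3+ spleen cells of Balb/c Foxp3 GFP mice on 4 one-colour arrays. The cells differed in Nrp1 (neuropilin-1, a surface co-receptor for VEGF and semaphorins). Cells without it were on 2 arrays, Nrp1-negative replicates 1 and 2, and cells with it on 2 arrays, Nrp1-positive replicates 1 and 2. No treatment is named, and both groups carry the same Foxp3 GFP background. The mice were 4 to 6 weeks old, and 4 to 8 weeks for Nrp1-negative replicate 1. The labels of that array disagree: its title gives Nrp-, while its source and cell type entries give Nrp+. It was grouped by its title, and the measured Nrp1 intensity did not go against that: 339 there and 1223 on Nrp1-negative replicate 2, against 9344 and 7745 on Nrp1-positive replicates 1 and 2. The labels do not tell separate mice or sorts apart, so p-values measure only the spread between these arrays, which may be technical, and their number limits the precision.

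In a dividing cell, the origin recognition factors with Cdc6 and Cdt1 load the Mcm2 to Mcm7 helicase onto DNA in G1. Cdc45 and the GINS complex switch that helicase on in S phase, after which the sliding clamp Pcna, its loader and the polymerases copy the strands. In mitosis Cdk1 and its cyclins, with the Aurora and Polo kinases, build the spindle, and the checkpoint proteins hold back the anaphase-promoting complex until every kinetochore is attached. Replication genes as a class are transcribed under E2F factors around the G1 to S transition, and mitosis genes later, in G2 and M. Regulatory T cells are known to divide more often than conventional CD4+ T cells in an unchallenged mouse. In RNA from bulk cells, fewer dividing cells and less RNA of these genes per cell cannot be told apart.

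The arrays differed more by replicate number than by Nrp1. Over all 18193 genes, log2 intensities correlated at 0.97 and 0.98 between the 2 groups of the same number, and at 0.96 and 0.97 between the 2 numbers of the same group. The arrays with number 1 had been scaled by the authors to a trimmed mean intensity of 500.003 and those with number 2 to 150.001, and all 4 were brought to the first value here. Intensities are in arbitrary units after that scaling, and a probe set is compared only with itself across arrays. The ratio of 3' to 5' Gapdh signal, a measure of RNA integrity and labelling, was 1.74 and 1.54 with number 1, and 0.763 and 0.711 with number 2, Nrp1-negative cells first. Of the lineage genes, Cd3d (a T cell receptor chain partner) was bright on every array at 23975, 22115, 20454 and 20377, while Foxp3, which defines regulatory T cells, was dim on all 4, at 4.45, 2.16, 36.4 and 19.9. Of 11 T cell and regulatory T cell markers, the 10 besides Foxp3 had a mean past the median of all probe sets. These and later runs of 4 intensities name Nrp1-negative and Nrp1-positive replicate 1 first, then Nrp1-negative and Nrp1-positive replicate 2.

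The mean intensity of each of the 50 division genes lay past the median of all probe sets (72.7), and 36 were at or above the median of every array they were read on, 23 of 27 replication genes and 13 of 23 mitosis genes. Pcna read 7877, 8233, 16054 and 14888, and Mcm7 4988, 4364, 6865 and 6589. Among the dimmest readings were those of Ttk, the spindle checkpoint kinase Mps1, at 28.4 and 14.9 on the arrays numbered 1.

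**Figure D1:**
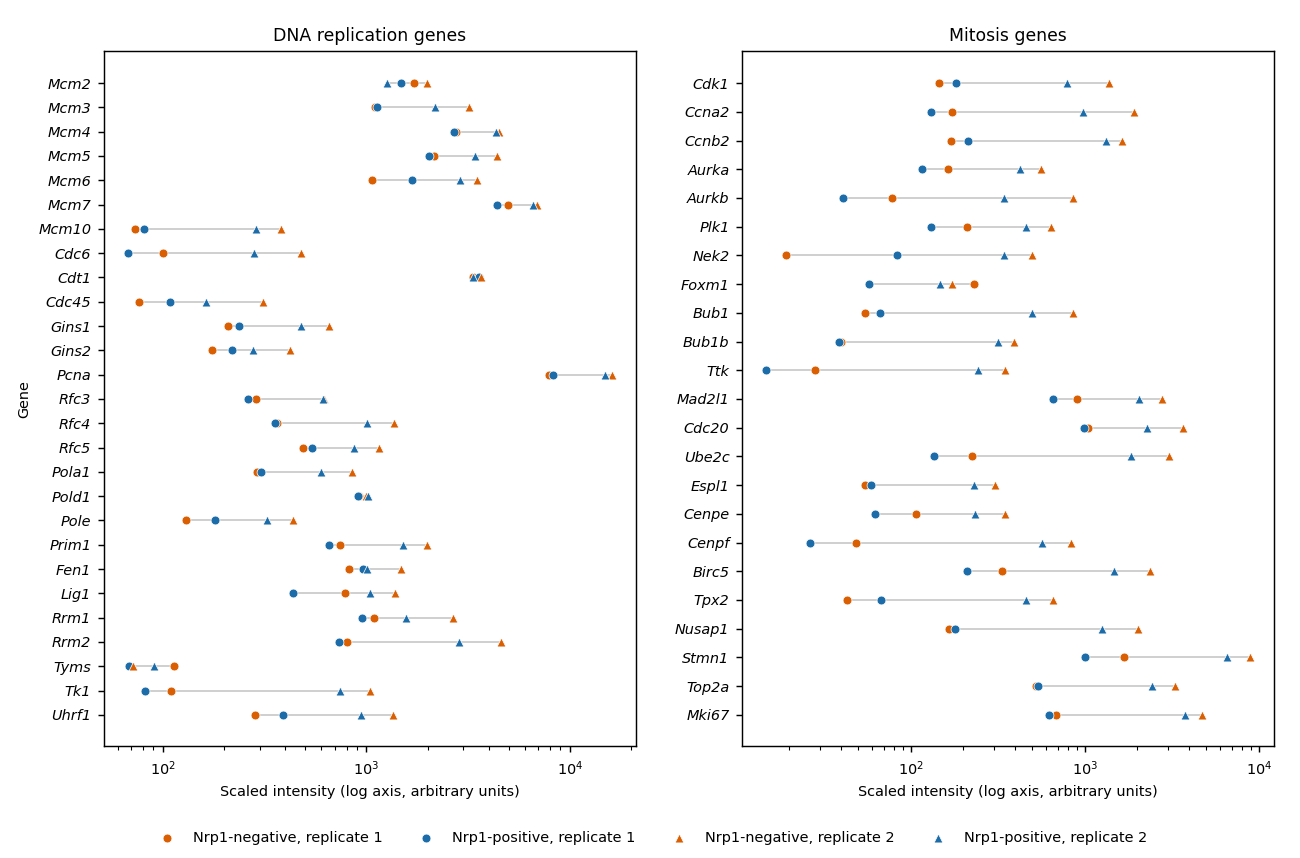
Scaled intensity (arbitrary units, log axis) of the 27 replication genes (left) and 23 mitosis genes (right) on each of the 4 arrays, with colour for the group, a circle for replicate 1 and a triangle for replicate 2; each point is 1 array. The triangles sit to the right of the circles for 46 of 50 genes, and in replicate 2 the Nrp1-positive point sits to the left of the Nrp1-negative one for 48 of 50.

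The first comparison asks whether Nrp1-positive and Nrp1-negative regulatory T cells differ in these genes. In replicate 2, RNA of 48 of the 50 genes read lower in the Nrp1-positive cells, against 49.6% of all genes, with all 23 mitosis genes and 25 of 27 replication genes on that side. The median log2 difference was -0.41 over the replication genes and -0.49 over the mitosis genes, against 0.0028 over all genes. In replicate 1, 29 of 50 read lower, against 51.1% of all genes: 14 of 27 replication genes with a median of -0.01, and 15 of 23 mitosis genes with a median of -0.37. No member passed the test over both replicates in the fit by group. There limma called 0 of 18193 genes at an adjusted p under 0.05 (0%), with 493 at an unadjusted p under 0.05. In that fit the difference between the replicate numbers enters the spread, and Nrp1 itself, the gene of the sort, was not called either. The 0 calls therefore do not show that the groups were alike in these genes.

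The sizes differed between the replicates too. In replicate 2, 42 of 50 members read at least 1.2-fold lower in Nrp1-positive cells (22.8% of all genes did), and 1, Tyms, read that much higher. In replicate 1, 16 read at least 1.2-fold lower (24.4% of all genes) and 9 read that much higher. Members lower in Nrp1-positive cells in both replicates numbered 27 (26.5% of all genes), and none was higher in both. Another 21 were higher in replicate 1 and lower in replicate 2 (23.1% of all genes). Across the 50 members the difference in replicate 1 and the difference in replicate 2 had a Pearson correlation of -0.01 and a Spearman correlation of 0.03. This is a description across genes, which share arrays and are not independent replicates.

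Among the licensing and helicase genes, all 12 read lower in Nrp1-positive cells in replicate 2 and 5 of 12 in replicate 1. Cdc6, which loads the helicase, read 99.7 in Nrp1-negative and 67.6 in Nrp1-positive cells in replicate 1, and 475 and 281 in replicate 2. Mcm2, a subunit of that helicase, read 1719 and 1484 in replicate 1, and 1980.3 and 1270.3 in replicate 2. Cdc45, the helicase activator, read 76.8 and 109 in replicate 1, and 309.8 and 162 in replicate 2. Cdc6 was thus lower in the Nrp1-positive cells of both replicates, as was the brightest probe set of Mcm2. The other Mcm2 probe set past the median intensity had opposite signs, with log2 differences of 0.39 and -0.43. Cdc45 was higher in the first replicate and lower in the second, with log2 differences of 0.42 and -0.86. Mcm6, another helicase subunit, split the same way at 0.64 and -0.28. The brightest probe sets of Mcm4 and Mcm7 read nearly alike in both groups, at -0.03 and -0.05 for Mcm4 and -0.19 and -0.06 for Mcm7. The other Mcm4 probe set past the median intensity read -0.05 and -0.43. The others of Mcm7 read 0.01 and -0.26, -0.23 and 0.07, and -0.19 and -0.30.

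Of the fork genes (clamp, clamp loader, polymerases and ligase), 9 of 10 read lower in Nrp1-positive cells in replicate 2 and 5 of 10 in replicate 1. Lig1, the ligase that joins Okazaki fragments, read 783 and 438 in replicate 1, and 1388 and 1038 in replicate 2. Fen1, the flap nuclease that acts just before it, read 821 and 960.2, then 1488 and 1012. Lig1 was lower in both replicates, at -0.81 and -0.41 on the log2 scale, whereas the brightest Fen1 probe set had opposite signs, 0.22 and -0.55. The other Fen1 probe set past the median intensity read lower in both replicates, at -0.13 and -0.11. The clamp Pcna differed by 0.06 and -0.11, and Pold1, the catalytic subunit of polymerase delta, by -0.01 and 0.03.

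The nucleotide enzymes and Uhrf1, which recruits the maintenance methyltransferase to newly copied DNA, read lower in Nrp1-positive cells in 4 of 5 cases in each replicate, with different exceptions. Rrm1, the large subunit of ribonucleotide reductase, read 1086 and 953 in replicate 1, and 2663 and 1563 in replicate 2. Its small subunit Rrm2 read 805 and 733, then 4608 and 2855. Both subunits were lower in the Nrp1-positive cells of both replicates, with larger differences in the second, -0.76 and -0.69, than in the first, -0.19 and -0.13. For Rrm1 this held only for the brightest probe set. Its other probe set past the median intensity had opposite signs, 0.29 and -0.55. Tyms, which makes thymidylate, was the exception in replicate 2 (-0.60 and 0.28) and Uhrf1 in replicate 1 (0.43 and -0.52).

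In the mitotic kinase and cyclin group, all 8 genes read lower in Nrp1-positive cells in replicate 2 and 5 of 8 in replicate 1. Aurkb, the kinase of the chromosomal passenger complex, read 78.4 and 41.2 in replicate 1, and 855 and 346 in replicate 2, which was the most negative member difference of replicate 2 at -1.26. Ccna2, the cyclin of S and G2 phase, read 174 and 131, then 1915 and 980.1. Cdk1 itself read 145 and 183, then 1388 and 796. Aurkb and Ccna2 were lower in both replicates and Cdk1 in the second alone, as was the cyclin Ccnb2 (0.28 and -0.30). The members with the most distant values in replicate 1 were also here: Foxm1, the transcription factor of G2 and M genes, at -1.72, and Nek2, a centrosome kinase, at 1.44. Both values rest on 1 of 2 probe sets past the median intensity: the other read 0.30 for Foxm1 and -0.99 for Nek2 in replicate 1, the opposite sign, and 0.0037 and -0.75 in replicate 2. Both genes were dim, with Nek2 at 19.3 on Nrp1-negative replicate 1 and Foxm1 at 57.4 on Nrp1-positive replicate 1, and in replicate 2 the brightest probe set of Foxm1 differed by -0.20 and that of Nek2 by -0.52.

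All 7 checkpoint and anaphase-promoting complex genes read lower in Nrp1-positive cells in replicate 2 and 5 of 7 in replicate 1. Ube2c, the ubiquitin-conjugating enzyme of that complex, read 224 and 137 in replicate 1, and 3044 and 1844 in replicate 2. Mad2l1, the checkpoint protein Mad2, read 905 and 655, then 2791 and 2059. These differences were nearly the same size in both replicates, -0.64 and -0.72 for Ube2c and -0.46 and -0.44 for Mad2l1. Cdc20, the activator of the complex that Mad2 holds back, differed by -0.08 and -0.68. Bub1, the kinetochore checkpoint kinase, had opposite signs in the replicates, 0.22 and -0.75, as did Espl1, separase, at 0.09 and -0.38.

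Of the spindle, kinetochore and chromosome genes, all 8 read lower in Nrp1-positive cells in replicate 2 and 5 of 8 in replicate 1. Stmn1 (stathmin, which destabilises microtubules) read 1684 and 1010.3 in replicate 1, and 8888 and 6549.6 in replicate 2. Birc5 (survivin, a partner of Aurora B) read 334 and 209.7, then 2368 and 1476. Mki67, whose product Ki-67 is the usual stain for cycling cells, read 686 and 624, then 4713 and 3792. All of them were lower in the Nrp1-positive cells of both replicates, at -0.73 and -0.44, -0.63 and -0.68, and -0.13 and -0.31 on the log2 scale. Top2a, the topoisomerase that untangles sister chromatids, differed by 0.04 and -0.44 with its brightest probe set. Its other probe set past the median intensity read lower in both replicates, at -0.73 and -0.48. Tpx2, which activates Aurora A, had opposite signs at 0.48 and -0.49. The other Tpx2 probe set past the median intensity read lower in both replicates, at -0.23 and -0.40.

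**Figure D2:**
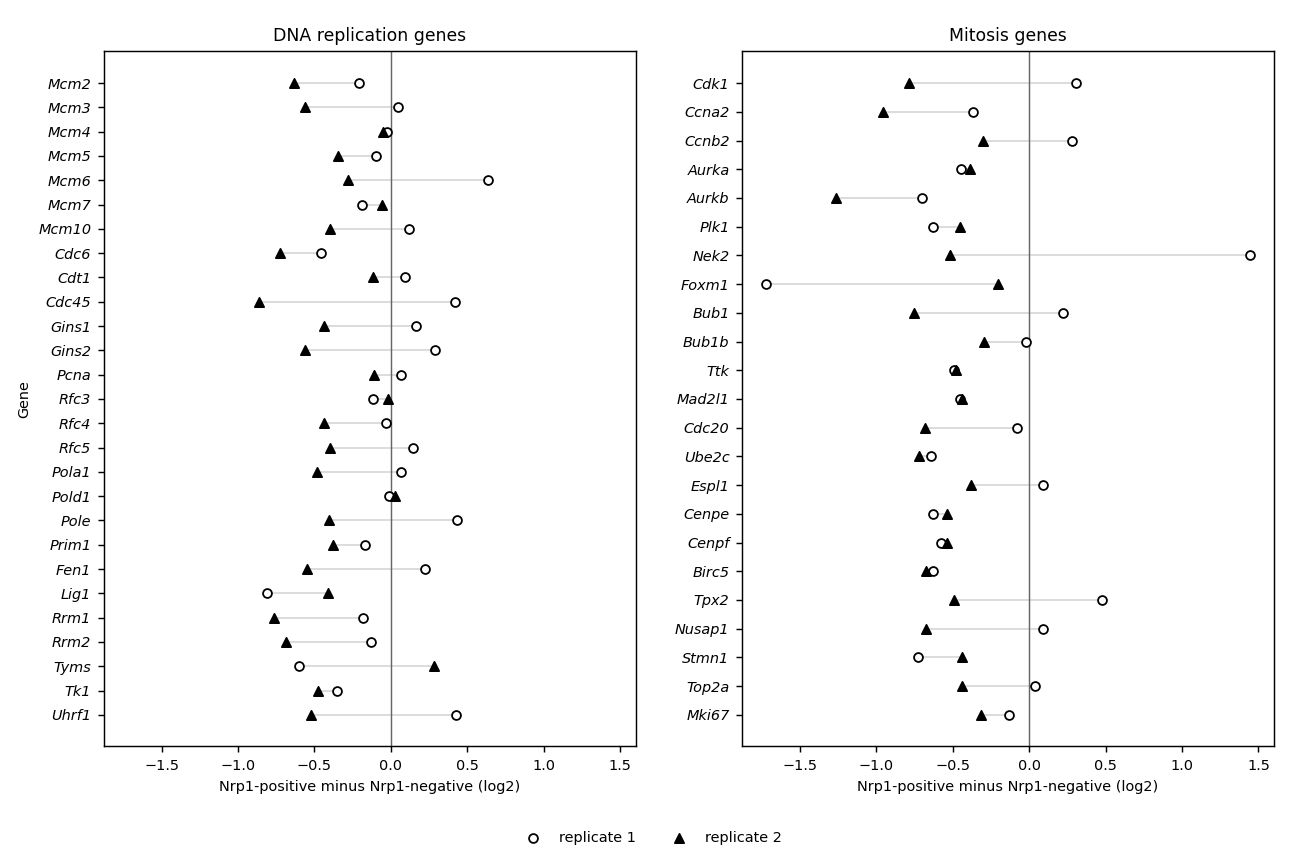
Log2 difference of Nrp1-positive minus Nrp1-negative for each replication gene (left) and mitosis gene (right), as an open circle for replicate 1 and a filled triangle for replicate 2; each point is the difference of 2 arrays and carries no error of its own. The triangles lie left of 0 for 48 of 50 genes, and the circles for 29 of 50, from -1.72 (Foxm1) to 1.44 (Nek2), genes whose second probe set had the opposite sign. Each gene is shown by its brightest probe set. In replicate 1 another probe set also had the opposite sign for Mcm2, Rrm1, Fen1 and Tpx2, among others.

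Because the scaling target and the array quality went with the replicate number, the Nrp1 comparison was also fitted with the number as a block. Of the members, 0 then passed in limma, where 20 of 18193 genes were called lower (0.11%); the lowest adjusted p was 0.0744 for Stmn1, followed by 0.12 for Ube2c, 0.121 for Birc5, 0.192 for Lig1 and 0.24 for Mad2l1. With the arrays also quantile normalised, the blocked fit called 74 genes lower (0.407%). Of them 5 were members: Stmn1 (adjusted p of 0.000299), Ube2c (0.0126), Lig1 (0.0128), Birc5 (0.0146) and Rrm1 (0.0453). These choices were combined after seeing the data, and of the blocked settings run this one called the most members. The other blocked settings called from 0 to 4 members, as given under the dependence on processing. The other Rrm1 probe set given above read higher in Nrp1-positive cells in replicate 1. Without the block both Nrp1-positive arrays lay below both Nrp1-negative arrays for 2 members, Mcm2 and Foxm1, against 12.2% of all genes. This held only for their brightest probe sets. In replicate 1 the other probe set of each past the median intensity read higher in Nrp1-positive cells. Leaving out 1 array moved the medians over both replicates across 0, from -0.80 to 0.47 for replication genes and from -1.60 to 1.01 for mitosis genes. The medians were positive when Nrp1-negative replicate 2 or else Nrp1-positive replicate 1 was left out. Leaving out an array unbalances the replicate numbers between the groups, so this shift follows by construction and cannot judge the Nrp1 difference. The erythroid markers read lower alongside: 6 of 6 measured (of 9 listed) were lower in Nrp1-positive cells in replicate 2 with a median of -1.04, and their median in replicate 1 was -0.51. Their summed intensity was 276 and 203 in Nrp1-negative and Nrp1-positive cells of replicate 1 and 584 and 205 in replicate 2, 4 of the 6 had a mean under the median of all probe sets, and the lowest reading was 1.56 (Hba-a1). Their part in the result was not tested.

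The second comparison sets the arrays numbered 2 against those numbered 1 within each group. RNA of the division genes was higher on the arrays numbered 2: limma called 41 of 50 members higher and 0 lower, where 4.01% of all genes were called higher and 3.56% lower. Of the mitosis genes 22 of 23 rose, with a median log2 difference of 2.69, and of the replication genes 19 of 27, with a median of 1.13; the median of all genes was -0.04. Both arrays numbered 2 lay above both arrays numbered 1 for 46 of 50 members, against 24.2% of all genes. With the Nrp1 group as a term in the fit, 42 members passed, with 6.47% of all genes called higher. With each array scaled to one median instead, the median of all genes lay at 0.09. Then 42 members passed, among 1142 of 18193 genes called higher. Of the called genes 78.0% were higher there, against 53.0% in the fit without the group term. The calls need limma's trend of variance with intensity: without it 0 genes passed, members included, and 3313 genes had an unadjusted p under 0.05.

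The differences between the numbers were larger among the mitosis genes. At least 2-fold higher in both groups were 22 of 23 mitosis genes and 8 of 27 replication genes (2.28% of all genes). At least 4-fold higher in both groups were 15 mitosis genes and 1 replication gene, Tk1 (0.374% of all genes). At least 8-fold higher in both groups were 2 members, Ube2c and Cenpf, among 4 of all genes (0.022%). The medians were 1.28 and 2.82 for replication and mitosis genes in Nrp1-negative cells, and 0.79 and 2.55 in Nrp1-positive cells. The difference between the numbers was larger in the Nrp1-negative cells for 37 of 50 members (49.8% of all genes), 22 of 27 replication genes and 15 of 23 mitosis genes, a contrast that was not tested. Across the 50 members the differences in the 2 groups had a Pearson correlation of 0.87 and a Spearman correlation of 0.88, against 0.39 and 0.37 over all genes, given as a description across genes that share 4 arrays.

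The mitosis roles had nearly equal median log2 differences. These were 2.70 for spindle, kinetochore and chromosome genes, 2.69 for checkpoint and anaphase-promoting complex genes, and 2.68 for kinases and cyclins. The largest differences of single members were those of Cenpf and Ube2c. Folds are on the log2(intensity + 18.33) scale, which understates those of dim genes, and a value in brackets after a fold is the adjusted p of the limma fit without the group term. Cenpf, a kinetochore protein, read 48.8, 26.6, 831 and 568, a log2 difference of 3.68 ± 0.35 (SE) and an adjusted p of 0.0028. Ube2c, with the 4 intensities given above, stood 12.3-fold higher on the arrays numbered 2, a log2 difference of 3.62 ± 0.29 (SE) and an adjusted p of 0.00148. Nusap1, which bundles spindle microtubules, read 167, 179, 2019 and 1261, a log2 difference of 3.08 ± 0.23 (SE) and an adjusted p of 0.00126. In all of these genes the gap between the numbers was several times the gap between the groups. Bub1 read 54.6, 66.7, 858 and 501, with an adjusted p of 0.00371. Tpx2 read 43.2, 67.2, 657 and 463, with an adjusted p of 0.00428. Mki67 rose 6.31-fold with the smallest adjusted p of all members, 0.000492, and Top2a rose 5.23-fold (0.000902). Stmn1 rose 5.78-fold and Birc5 6.67-fold.

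The kinases and cyclins had differences of like size. Ccna2 rose 8.2-fold, a log2 difference of 3.04 ± 0.31 (SE) and an adjusted p of 0.00358, and Aurkb 7.43-fold (0.0151). Ccnb2, a cyclin partner of Cdk1, read 172, 213, 1649.8 and 1334, a log2 difference of 2.84 ± 0.18 (SE) and an adjusted p of 0.000829. Cdk1 rose 5.9-fold, Nek2 6.93-fold, Aurka (Aurora A) 3.23-fold and Plk1, the Polo kinase, 3.02-fold. Every measured member of this group rose except Foxm1, which read 231, 57.4, 172 and 147 and missed the threshold at 0.749, with its groups apart: -0.39 in Nrp1-negative and 1.13 in Nrp1-positive cells. The checkpoint genes Bub1b (BubR1), Ttk and Espl1, which cuts cohesin at anaphase, rose 6.44-fold, 7.89-fold and 3.8-fold. Cdc20 and Mad2l1 rose less, 2.83-fold and 3.06-fold, as did the kinetochore motor Cenpe at 3.02-fold.

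Among replication genes the nucleotide enzymes had the widest range. Tk1, thymidine kinase, read 109.8, 81.9, 1043 and 745, a log2 difference of 2.99 ± 0.26 (SE) and an adjusted p of 0.00206. Rrm2 rose 4.64-fold (0.0028), Uhrf1 3.27-fold (0.00815) and Rrm1 1.99-fold (0.0471). Tyms did not pass and read 113, 68.5, 71 and 90. At the fork, 7 of 10 genes rose: Rfc4, a clamp loader subunit, 3.15-fold, the primase subunit Prim1 2.45-fold, the polymerase alpha subunit Pola1 2.33-fold, the polymerase epsilon subunit Pole 2.31-fold, and the loader subunits Rfc3 and Rfc5 2.18-fold and 1.92-fold. Pcna rose 1.92-fold, a log2 difference of 0.94 ± 0.11 (SE) and an adjusted p of 0.00461. Lig1 (1.01, adjusted p of 0.0701), Fen1 (0.46, 0.21) and Pold1 (0.14, 0.517) did not pass. The other Fen1 probe set past the median intensity differed by 1.09 in Nrp1-negative and by 1.11 in Nrp1-positive cells. That of Pold1 differed by -0.66 and -0.93. Lig1 was the member that passed once the group was in the fit.

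Of the licensing and helicase genes 8 of 12 rose. Mcm10, which links the helicase to the polymerases, read 72.9, 80.5, 382 and 286, and Cdc6 rose 3.81-fold (0.0246). The helicase subunits did not move as one: Mcm6 rose 2.37-fold, Mcm3 2.34-fold, Mcm5 1.85-fold, Mcm4 1.61-fold and Mcm7 1.44-fold, while Mcm2 had a log2 difference of -0.01 ± 0.20 (SE) and an adjusted p of 0.985. Gins1, a GINS subunit, rose 2.4-fold, and Gins2 did not pass (0.75, 0.164). The other Gins2 probe set past the median intensity differed by 2.32 in Nrp1-negative and by 1.39 in Nrp1-positive cells. Cdc45 had a log2 difference of 1.15 ± 0.40 (SE) and an adjusted p of 0.143, and Cdt1, which read 3361, 3577, 3650.1 and 3357, had a log2 difference of 0.01 ± 0.10 (SE) and an adjusted p of 0.955. The other Cdc45 probe set past the median intensity differed by 1.62 in Nrp1-negative and by 1.35 in Nrp1-positive cells. That of Cdt1 differed by 0.71 and -0.06.

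**Figure D3:**
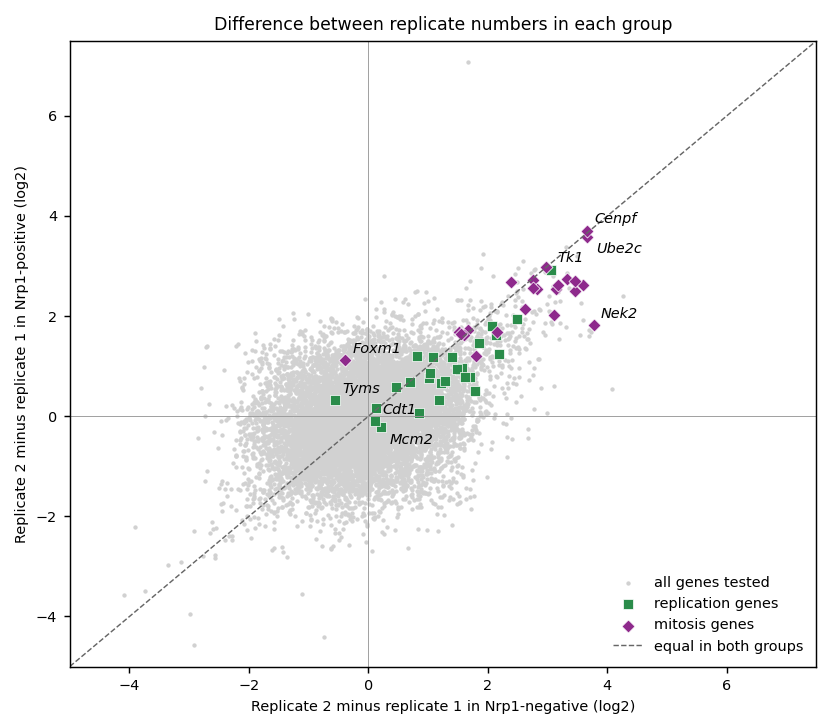
Log2 difference of replicate 2 minus replicate 1 in Nrp1-negative cells (horizontal axis) and in Nrp1-positive cells (vertical axis) for all 18193 genes (grey), the 27 replication genes (squares) and the 23 mitosis genes (diamonds); the dashed line marks equal differences. The members lie up and to the right, with medians in the 2 groups of 2.82 and 2.55 for mitosis genes and 1.28 and 0.79 for replication genes, and 37 of 50 lie below the dashed line.

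Other features of the arrays moved with the replicate number. The summed intensity of 9 myeloid markers was 12918 and 15669 with number 1 and 53130 and 49882 with number 2. On the arrays numbered 2, 8 of the 9 were higher in both groups, against 5575 of all 18193 genes. Of the 9, 5 were called higher, against 4.01% of all genes. The median log2 difference of the 9 was 1.73, and the lowest reading was 12.5 (Elane). Cd4, the co-receptor used in the sort, was lower on the arrays numbered 2, reading 2199, 2261, 723 and 755. The list of 11 T cell and regulatory T cell markers that holds Cd4 had a median log2 difference of -0.05. Of these, 1 was called higher and 2 lower (4.01% and 3.56% of all genes). Their summed intensity was 89496 and 110137 with number 1 and 85752 and 104561 with number 2. The ratios of 3' to 5' signal given above differed, and 12 probe sets for spiked-in control RNA summed to 69194 and 67768 with number 1 and to 89.4 and 152 with number 2. Markers of CD8 T and NK cells summed to 1421 and 1815 with number 1 and to 3387 and 2705 with number 2. Of the 6 measured, 5 were higher in both groups, and 0 were called higher (4.01% of all genes). The myeloid, CD8 and NK markers, Cd4, the spiked-in controls and the 3' to 5' ratios went with the number. Cell composition, array handling and cell division therefore cannot be told apart. With any 1 array left out, its number is a single array assumed to vary like the pair it is set against, and limma called 5 to 20 members higher. The differences kept their size, with medians of 2.40 to 2.96 for mitosis genes and 0.89 to 1.37 for replication genes. limma called 15 members without Nrp1-negative replicate 1 (0.55% of all genes), 5 without Nrp1-negative replicate 2 (0.104%), 20 without Nrp1-positive replicate 1 (1.06%) and 19 without Nrp1-positive replicate 2 (0.467%).

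Since these genes moved together, the 250 bases upstream of their start sites were searched for the elements known from cell cycle promoters. The sequences are RefSeq's, of build GRCm38.p6, in a table that matched 23 of 27 replication genes (28 start sites) and 19 of 24 mitosis genes. On both strands the search took the E2F element as TTTCCCGC, TTTCGCGC, TTTGGCGC or TTTGCCGC, the cell cycle genes homology region (CHR), bound by the MuvB complex, as TTTGAA or TTCGAA, and the box bound by NF-Y as CCAAT. No motif contains another, though matches can abut or overlap. An E2F match stood in 25% of replication windows, 5.26% of mitosis windows and 1.86% of all 32851 windows in the table. A CHR match stood in 17.9%, 42.1% and 17.1%, a CCAAT match in 57.1%, 84.2% and 33.8%, and both of these in 14.3%, 42.1% and 6.02%. A match is a description of letters, not a site in use. Within the mitosis genes the median log2 difference between the numbers was 2.61 for 8 genes with a CHR match and 2.77 for 10 without one. Within the replication genes it was 1.22 for 7 genes with an E2F match and 1.00 for 16 without one, and 0.53 for 5 genes with a CHR match and 1.22 for 18 without one. These are descriptions with no test.

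The windows below are examples that hold matches, given in capitals and read 5' to 3' on the gene's strand. A CHR match stood in 8 of 19 mitosis windows and in 5 of 28 replication windows. An E2F match stood in 7 of 28 replication windows. The window of Cenpf, the member with the largest difference between the numbers, held neither. Ube2c (chr2:164769679-164769928, plus strand), Ccnb2 (chr9:70421555-70421804, minus strand) and Bub1b (chr2:118597961-118598210, plus strand) hold CHR and CCAAT matches, and Cdk1 (chr10:69352913-69353162, minus strand) holds an E2F match too. Cdc6 (chr11:98907901-98908150, plus strand) and Mcm6 (chr1:128359706-128359955, minus strand) are replication genes that hold E2F matches, Mcm6 with CCAAT matches as well.
Ube2c: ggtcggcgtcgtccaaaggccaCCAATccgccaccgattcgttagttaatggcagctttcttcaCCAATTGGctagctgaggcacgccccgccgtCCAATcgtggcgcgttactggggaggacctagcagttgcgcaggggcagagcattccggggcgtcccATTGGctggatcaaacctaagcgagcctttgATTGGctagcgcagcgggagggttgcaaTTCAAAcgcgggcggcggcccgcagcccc
Ccnb2: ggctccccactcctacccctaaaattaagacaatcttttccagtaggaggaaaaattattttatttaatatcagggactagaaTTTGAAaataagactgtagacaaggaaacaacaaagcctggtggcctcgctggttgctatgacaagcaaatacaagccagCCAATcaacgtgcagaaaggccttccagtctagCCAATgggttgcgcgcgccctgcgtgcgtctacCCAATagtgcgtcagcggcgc
Bub1b: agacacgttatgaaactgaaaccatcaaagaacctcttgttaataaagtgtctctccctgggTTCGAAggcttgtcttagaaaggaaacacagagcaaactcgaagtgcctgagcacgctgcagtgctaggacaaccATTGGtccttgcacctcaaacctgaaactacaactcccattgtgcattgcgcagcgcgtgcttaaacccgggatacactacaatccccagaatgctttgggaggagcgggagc
Cdk1: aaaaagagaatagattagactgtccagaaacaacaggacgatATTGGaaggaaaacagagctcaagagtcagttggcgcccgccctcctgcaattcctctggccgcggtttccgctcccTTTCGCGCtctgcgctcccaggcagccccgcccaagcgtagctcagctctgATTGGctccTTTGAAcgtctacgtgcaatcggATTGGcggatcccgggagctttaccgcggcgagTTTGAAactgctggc
Cdc6: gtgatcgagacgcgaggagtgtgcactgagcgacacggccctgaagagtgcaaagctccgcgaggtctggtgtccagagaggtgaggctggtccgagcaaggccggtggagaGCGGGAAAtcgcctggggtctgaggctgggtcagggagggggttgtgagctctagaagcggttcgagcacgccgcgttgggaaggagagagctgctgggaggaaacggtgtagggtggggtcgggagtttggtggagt
Mcm6: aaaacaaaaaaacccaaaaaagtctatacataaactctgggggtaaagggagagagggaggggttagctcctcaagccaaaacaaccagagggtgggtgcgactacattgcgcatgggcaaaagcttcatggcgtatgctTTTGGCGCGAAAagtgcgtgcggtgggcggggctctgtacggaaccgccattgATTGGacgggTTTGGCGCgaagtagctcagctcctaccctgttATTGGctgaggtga
The genes with these windows rose by 3.62 (Ube2c), 2.84 (Ccnb2), 2.69 (Bub1b), 2.56 (Cdk1), 1.93 (Cdc6) and 1.24 (Mcm6) on the log2 scale between the replicate numbers. A link between a match and the size of the difference was not tested.

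The members had 109 probe sets in all, 83 of them past the median intensity. Of these 83, 78 read lower in Nrp1-positive cells in replicate 2 and 46 in replicate 1, with medians of -0.44 and -0.03, and 75 read higher in replicate 2 in both groups. Among the 27 genes with more than 1 probe set past the median intensity, 23 had every such probe set lower in Nrp1-positive cells in replicate 2, and 22 had every one higher in replicate 2 in both groups. The exceptions in the second count were Cdt1, Foxm1, Mcm2, Mcm3 and Pold1, where probe sets of 1 gene disagreed or were split between the groups. Probe sets were kept by their mean over all arrays, so one dim in replicate 1 could pass through replicate 2. A Ttk probe set did so, at 28.4 and 14.9, then 348 and 245, Nrp1-negative cells first. Those left out read both ways, with mean log2 differences between the numbers of -1.66 for a Bub1b and 1.78 for a Ttk probe set. The counts therefore describe only the probe sets kept. With each gene read as the mean of its probe sets, limma called 29 members higher in replicate 2 (2.42% of all genes).

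The wider pathway gave the same order between the replicate numbers. The counts that follow are of limma calls without the group term, where 4.01% of all genes were called higher and 3.56% lower. Of 40 other mitosis genes 31 rose and 0 fell, with a median log2 difference of 1.90. Ckap2, a spindle protein, read 9.76, 47.8, 522 and 333. Of 32 other replication genes 8 rose and 0 fell, with a median of 0.38; Clspn (claspin, a fork checkpoint adaptor) read 149, 134, 723 and 623. Of 18 regulators of G1 and S entry 5 rose and 1 fell (median 0.48), with the atypical repressors E2f8 and E2f7 at log2 differences of 2.91 and 1.79. Of 19 cell cycle inhibitors 2 rose and 4 fell (median -0.05), among the latter Btg2, an antiproliferative factor, at -1.36. In the Nrp1 comparison no gene of these lists passed with or without the block. Their medians in replicate 2 were -0.44 for other mitosis genes, -0.20 for other replication genes, -0.12 for the G1 and S regulators and -0.01 for the inhibitors.

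**Figure D4:**
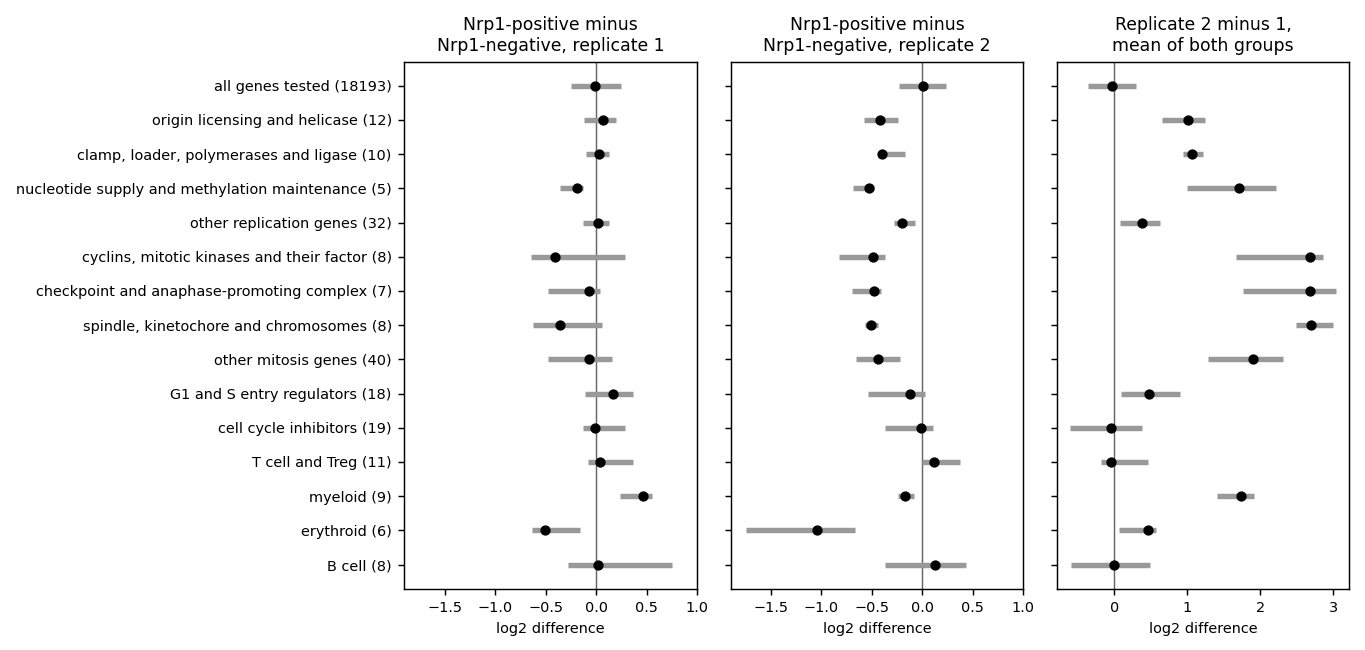
Median (point) and the range from the first to the third quartile (bar) of the log2 difference over each gene list, with the number of genes in brackets, for Nrp1-positive minus Nrp1-negative in replicate 1 (left) and replicate 2 (middle) and for replicate 2 minus replicate 1 averaged over the groups (right). The 3 mitosis roles and the other mitosis genes lie furthest right in the right panel, all genes sit at -0.04, and the myeloid markers sit at 1.73.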

How the data were processed

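RNA from sorted spleen CD4+ Foxp3+ cells had been extracted with Trizol, labelled with biotin and hybridised to 4 one-colour Affymetrix mouse arrays, per the labels. The authors deposited linear signal intensities per probe set, which the submitters' processing notes trace to MAS5 with no version; depth has no counterpart on arrays. Of 45101 probe sets, 34945 were annotated to 1 gene, 932 to several, 9160 were unnamed here and 64 were controls.

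Each array was scaled to one mean after trimming 2% of probe sets at each end, and values were analysed as log2(intensity + 18.33), so fold changes of dim genes are understated. The brightest probe set stood for a gene, and 18193 genes were tested with no filter and no quantile normalisation, so that every measured member was tested. Groups came from the array titles. limma 3.58.1 in R 4.3.3 (moderated linear model with an intensity trend, two-sided, Benjamini-Hochberg at 0.05) compared the groups, and separately the replicate numbers, on 2 arrays against 2; SE is that of the fit. The labels give no meaning to the number; it was used as a block because the authors' scaling target differed by it. Deviations from the group mean of same-numbered arrays correlated at 0.39 over 18193 genes, which with 2 pairs does not settle a pairing. The script was tested on simulated data.

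The members and lists were chosen with earlier results of these data known. Genes named by rule were, per role, those passing a fit (at most 5) and those with the largest and smallest difference, with the 2 largest per pathway list; other members were named for their role after their values were seen. Alternatives were quantile or median scaling, pseudocounts of 0.05 and 1 times the median, a filter at percentile 50 (intensity 72.7), the mean of probe sets, limma without the trend, leaving out each array and relabelling Nrp1-negative replicate 1.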

Additional observations from a re-analysis of the deposited data

Results flagged for a closer look

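In 4 members the difference between replicate 2 and replicate 1 had opposite signs in the 2 groups. Mcm2 differed by 0.20 in Nrp1-negative and by -0.22 in Nrp1-positive cells on the log2 scale. For Cdt1 the same differences were 0.12 and -0.0911. For Tyms they were -0.56 and 0.32, and for Foxm1 -0.39 and 1.13. The Foxm1 signs belong to its brightest probe set; its other probe set past the median intensity differed by 0.92 and 0.62. Each value rests on 1 array per group and number, and the difference between the groups was not tested.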

How the results depend on the processing

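In the Nrp1 comparison 0 genes were called without a block under each alternative run, leaving out each array included (0 to 0); this says nothing about stability, since without the block the difference between the numbers enters the spread. With the replicate block 51 genes were called, which changed no member's call. The block with one further choice, combined after seeing the data, gave 199 genes with quantile normalisation (5 members), 121 with median scaling (4 members), 117 with the pseudocount of 0.05 (3 members), 60 with the filter, 35 with the mean of probe sets (1 member) and 8 with the pseudocount of 1. It gave 0 without the trend and 0 with the relabelled array.

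Between the replicate numbers 1377 genes were called. The count was 2205 with the group term, 830 with the mean of probe sets, 0 without the trend and 57 to 302 with 1 array left out. The mitosis median was 2.25 with the pseudocount of 1, 1.82 with the mean of probe sets and 2.40 to 2.96 with 1 array left out, and the replication median 0.89 to 1.37. Of 35 members named by rule, 31 had passed; all 31 lost the call without the trend, 10 with the mean of probe sets, and 3 each with quantile normalisation and the pseudocount of 1.

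The Nrp1 medians were -0.16 for replication genes and -0.42 for mitosis genes over both replicates. With 1 array left out they ran from -0.80 to 0.47 and from -1.60 to 1.01, and with Nrp1-negative replicate 1 counted as positive they were -1.02 and -2.10. Because the numbers differ so much, leaving out an array unbalances this comparison by construction. Of the 12 genes named by rule, Lig1 kept its sign with 1 array left out, at -1.22 to -0.0073. The others ran from -1.62 to 0.44 (Cdc6), -0.0747 to 0.0436 (Cdt1), -0.0746 to 0.0871 (Pold1), -1.11 to 0.17 (Rrm1), -1.14 to 1.04 (Uhrf1), -2.57 to 0.60 (Aurkb), -1.58 to 1.56 (Ccnb2), -2.51 to 1.15 (Ube2c), -1.23 to 0.94 (Espl1), -2.03 to 0.73 (Birc5) and -1.73 to 1.72 (Tpx2). Pold1, at 0.01, was -0.0048 with quantile normalisation, -0.0178 with median scaling, -0.0733 with the mean of probe sets and -0.0786 with the relabelled array. Tpx2 was 0.0482 with the pseudocount of 0.05.

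Between the numbers, Mcm2 was 0.15 with median scaling and 0.0929 with the mean of probe sets, Tyms 0.0123 and 0.36, and Pold1 -0.33 with the mean of probe sets. With 1 array left out Mcm2 ran from -0.33 to 0.31, Tyms from -0.42 to 0.18 and Foxm1 from -0.49 to 1.23. Apart from the effect of leaving out arrays, the cause was not tested. Signal over background limits the dimmest readings, such as those of Ttk on the arrays numbered 1, and 2 arrays a group limit all.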
